A study of Takifugu rubripes with 9 samples.

Results

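The brain and eye libraries of adult wild type *Takifugu rubripes* (torafugu) were compared, as the neural tissues of a small RNA series that covered 9 tissues. The tissues of the series came from 2 adult fish and were sequenced on the SOLiD 3 platform as 1 library each. Whether brain and eye came from 1 or both fish, and which parts of the eye were taken, is not given in the sources used here. Brain and eye are 2 of the 8 libraries analysed here. All tests below therefore compare the reads of these 2 libraries, and no value carries an error between fish. Both tissues are mixtures of cells, so a difference in cell number and a difference in RNA per cell cannot be told apart.

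Reads listed with a miRBase entry in the deposited data were summed by miRNA name and by arm, which is the side of the hairpin (5p or 3p). These are only part of the reads that the paper counted as miRNAs, which also included matches by looser rules. Reads that match the hairpin but were not listed as a mature form or its end variant were kept apart as "precursor" reads. Many of these are the unrecorded arm, and some overlap a recorded arm. The brain library held 929645 such annotated reads in 4325 distinct sequences and 479 names, and the eye library held 458800 reads in 3106 distinct sequences and 412 names. Levels are given as CPM, the reads of a name per 1000000 annotated reads of its library. Of 517 names with a read in either library, 243 had at least 50 reads in 1 of them and were compared. Arms and precursor reads of the same hairpin are separate names, so a count of names is not a count of independent miRNAs. These 243 names held 99.7% of the annotated reads in brain and 99.7% in eye.

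A miRNA is a short RNA that guides an Argonaute protein to messenger RNAs, mainly through bases 2 to 8 of its 5′ end, the seed. In vertebrate brain, miR-9 is expressed from neural progenitors onward, miR-124 is the major miRNA of neurons, and miR-219 and miR-338 act in oligodendrocytes, which make myelin. In the vertebrate eye, the cluster of miR-183, miR-96 and miR-182 is expressed in photoreceptors, miR-204 and miR-211 in pigment epithelium and ciliary body, and miR-184 in lens and cornea. These roles are known mainly from mouse, human and zebrafish.

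The most abundant sequences of the miRNAs on which the comparison turned are shown here as the deposited files give them (5′ to 3′, with T for U), and capitals mark bases 2 to 8. The first group holds miRNAs with a higher level in brain.
miR-10c-5p: tACCCTGTagatccggatttgt
miR-137-3p: tTATTGCTtgagaatacgcgt
miR-7-5p: tGGAAGACtagtgattttgttg
miR-219-5p: tGATTGTCcaaacgcaattct
miR-218b-5p: tTGTGCTTgatctaaccatgca
miR-139-5p: tCTACAGTgcatgtgtctcca
miR-135a-5p: tATGGCTTtctattcctatgt
miR-138-5p: aGCTGGTGttgtgaatcaggccg
miR-187-3p: tCGTGTCTtgtgttgcagccagt
miR-128-3p: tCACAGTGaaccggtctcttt
miR-9-5p: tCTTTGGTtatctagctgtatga
miR-129 precursor: aAGCCCTTaccccaaaaagcat
miR-338-3p: tCCAGCATcagtgattttgttg
The second group holds miRNAs with a higher level in eye.
miR-204a-5p: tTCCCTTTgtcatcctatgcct
miR-184-3p: tGGACGGAgaactgataaggg
miR-190b-5p: tGATATGTttgatattaggttg
miR-183-5p: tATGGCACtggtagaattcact
miR-182 precursor: tTTGGCAAtggtagaactcacac
miR-455-5p: tATGTGCCcttggactacatcg
miR-140-5p: cAGTGGTTttaccctatggt
miR-206-3p: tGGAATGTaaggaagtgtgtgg
miR-1-3p: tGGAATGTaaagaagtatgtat
miR-451-5p: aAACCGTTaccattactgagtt
The last is the leading sequence of the most abundant miRNA of both libraries.
miR-124-3p: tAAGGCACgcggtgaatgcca
In the second group, miR-1-3p and miR-206-3p share their seed, while the other sequences above each have a seed of their own.

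Brain and eye shared miR-124 as their leading miRNA and differed in most of the others. A name was called higher where the reads differed between the libraries (two-sided exact binomial test of its reads against the library totals, Benjamini-Hochberg adjusted p under 0.05 over the 243 names) and the CPM differed by at least 2-fold. By this rule 109 of 243 names (44.9%) were higher in brain, 53 (21.8%) were higher in eye, and 81 were not called. The largest adjusted p among the called names was 0.011. At this depth only 24 names did not reach an adjusted p under 0.05, and 57 names passed it with a difference of less than 2-fold. The ratio was at least 10-fold for 36 of the names higher in brain and for 27 of those higher in eye. Over all 243 names the median ratio of brain to eye was 1.72 (log2 0.78).

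**Figure D1:**
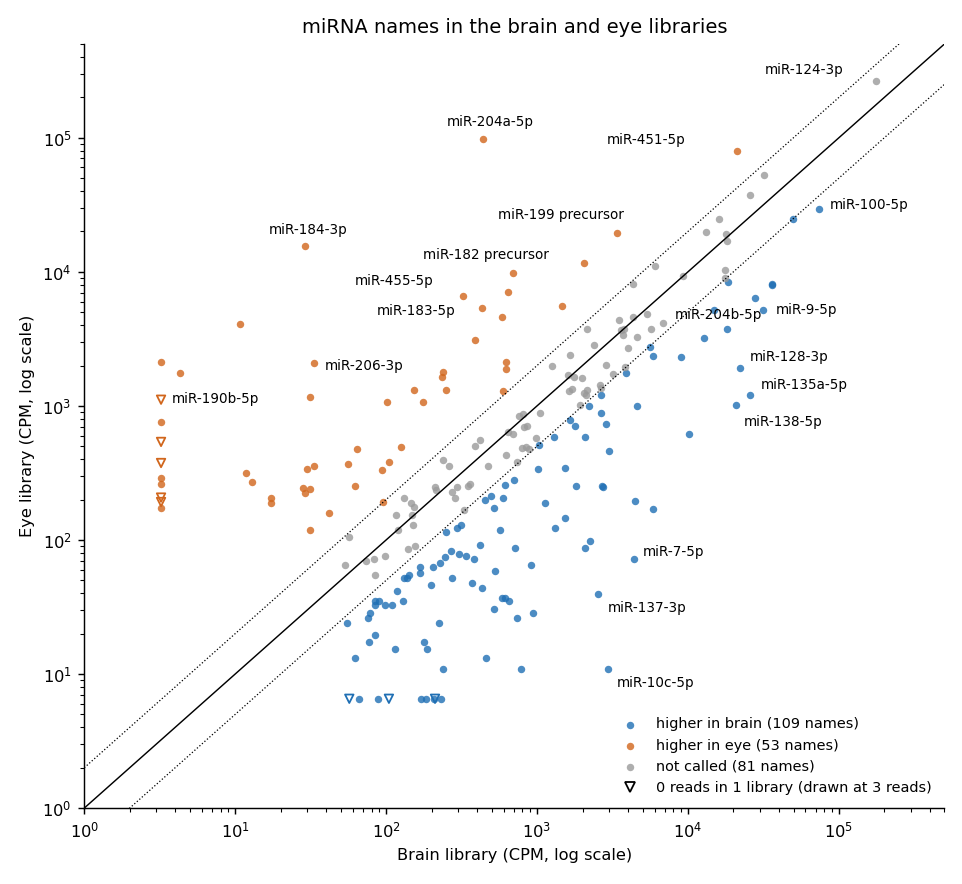
CPM of the 243 compared names in the brain library (horizontal axis) and the eye library (vertical axis), both on a log scale. The solid line marks equal levels and the dotted lines a 2-fold difference, and the miR-204a-5p and miR-184-3p points lie far above the lines while miR-10c-5p lies far below.

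The reads of the eye library were held by fewer names. The 10 most abundant names held 51.4% of the reads in brain and 65.0% in eye, and 50% of the reads was reached with 10 names in brain and with 5 in eye. The names higher in brain held 50.6% of the reads in brain and 13.1% in eye. The names higher in eye held 3.54% of the reads in brain and 29.97% in eye.

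Most markers of each tissue, but not miR-124, had their highest level in their own library. Among the 8 libraries, miR-9-5p, miR-128-3p, miR-137-3p, miR-138-5p, miR-219-5p and miR-338-3p had their highest CPM in brain, and miR-96-5p, miR-182 precursor, miR-183-5p, miR-184-3p and miR-204a-5p had theirs in eye. The brain marker miR-124-3p was instead highest in eye (264089 CPM, against 176731 CPM in brain). Of the eye marker miR-204, the name miR-204b-5p had more CPM in brain (6876) than in eye (4152). Of the 109 names higher in brain, 62 had their highest CPM of all 8 libraries in brain, 16 in testis, 9 in intestine, 8 in heart, 5 in liver, 5 in ovary and 4 in slow muscle. The testis library held only 54540 annotated reads, in which 3 reads equal 55.0 CPM. Of the 53 names higher in eye, 31 were highest in eye, 9 in slow muscle, 6 in heart, 5 in liver and 2 in ovary. Over all 243 compared names, 72 were highest in brain and 39 in eye. A name called higher in brain cannot be highest in eye, and the reverse, so these counts are partly fixed by the call.

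**Figure D2:**
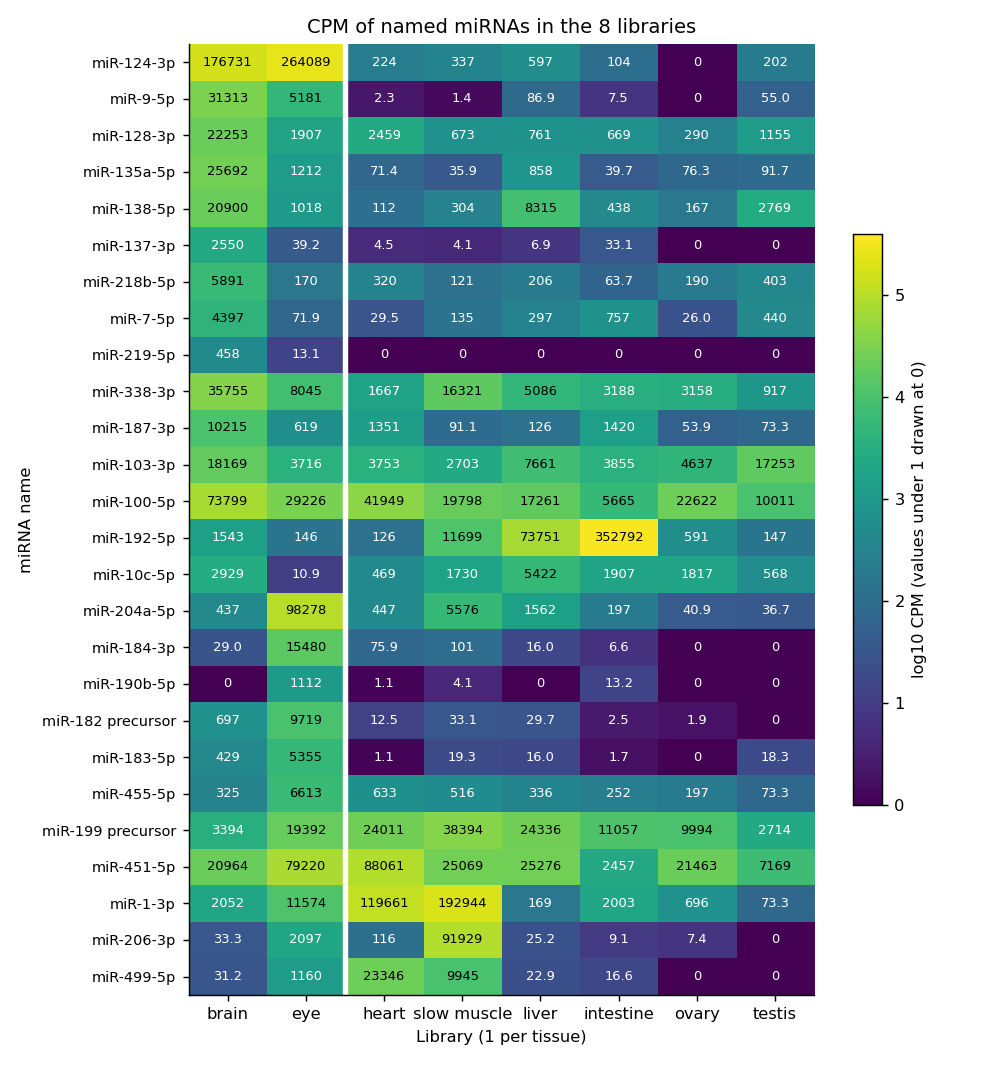
CPM of 26 miRNA names in each of the 8 libraries, with brain and eye at the left of the white line (color shows log10 CPM, and the number in each cell is the CPM). miR-9-5p and miR-124-3p stay under 1000 CPM in the 6 other libraries, whereas miR-192-5p and miR-1-3p are far higher in other tissues than in brain or eye.

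Neuronal miRNAs other than miR-124 were higher in brain. A list of neuronal miRNAs had 28 compared names, of which 23 were higher in brain, 0 in eye, and 5 were not called. Over all 243 names, 44.9% were higher in brain. The 5 names without a call all belonged to miR-124, and the other 23 names summed to 143121 CPM in brain and 20333 CPM in eye (7.04-fold). With miR-124 and with names that were not compared, the whole list summed to 365840 CPM in brain and 355096 CPM in eye (1.03-fold). The list's median log2 ratio was 3.58, against 0.78 over all 243 names. The smallest log2 ratio among the 23 was 1.95.

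Among the most abundant neuronal miRNAs, miR-9-5p had 31313 CPM in brain and 5181 CPM in eye (6.04-fold, exact 95% interval 5.80 to 6.30). The level of miR-128-3p, a miRNA of maturing neurons, was 22253 CPM in brain and 1907 CPM in eye (11.7-fold, 10.9 to 12.5). For miR-138-5p, which controls dendritic spine size in rat neurons, the levels were 20900 CPM in brain and 1018 CPM in eye (20.5-fold, 18.7 to 22.6). Each of the 3 had at least 19430 reads in brain and at least 467 in eye, so counting error was small beside the differences.

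The largest ratios of the list belonged to less abundant members. miR-137-3p, a regulator of neuronal maturation and synapses in mammals, had 2371 reads in brain and 18 in eye (2550 against 39.2 CPM, 65.0-fold, 41.0 to 110). Its reads that matched the leading sequence numbered 1439 in brain and 7 in eye (101.5-fold, 49.1 to 253). For miR-153a-3p, whose targets in mammals include synaptic proteins, the libraries held 730 and 5 reads (72.1-fold, 30.7 to 222.6), and for miR-153b-3p they held 874 and 13 reads (33.2-fold, 19.3 to 62.6), in brain and in eye. miR-132-3p and miR-212-3p, which neuronal activity induces through CREB in mammals, had 2698 and 741 CPM in brain, against 253 and 26.2 CPM in eye. Their ratios were 10.7 (8.86 to 13.0) and 28.3 (16.1 to 55.1). The miR-129 precursor reads, which include the sequence printed above, were 36108 CPM in brain and 8030 CPM in eye (4.50-fold, 4.35 to 4.65).

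miR-124 differed from the rest of the list. Its main name, miR-124-3p, had 176731 CPM in brain and 264089 CPM in eye, a ratio of 0.669 (0.664 to 0.674), and miR-124b-3p had 31797 CPM in brain and 52727 CPM in eye (0.603, 0.593 to 0.613). The third, miR-124c-3p, was at 9197 CPM in brain and 9279 CPM in eye (0.991, 0.955 to 1.03). With all arms and precursor reads, miR-124 made up 22.2% of the annotated reads in brain and 33.5% in eye. The miR-124 precursor reads were nearest to 2-fold, with 4343 CPM in brain and 8102 CPM in eye (log2 -0.90). The ratios of all miR-124 names are above 0.5, so none of them was called. Leaving the miR-124 reads out of the library totals lowers every log2 ratio by 0.22, after which 96 names were higher in brain and 57 in eye. That scale takes the miR-124 precursor reads past 2-fold in favor of eye, so the lack of a call depends on the scale.

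Every compared name of the neuroendocrine and oligodendrocyte lists was higher in brain (3 of 3 and 4 of 4), against 44.9% of all 243 names. The 3 neuroendocrine names all belonged to miR-7. The other miRNA of that list, miR-375, had the opposite direction, but none of its names was compared. Summed over its names, miR-375 had 12 reads in brain and 53 in eye (12.9 against 116 CPM, 8.95-fold higher in eye). miR-7-5p, which is abundant in neuroendocrine cells of the hypothalamus and pituitary, had 4088 reads in brain and 33 in eye (4397 against 71.9 CPM, 61.1-fold, 43.5 to 88.9). For miR-219-5p, the reads were 426 in brain and 6 in eye (458 against 13.1 CPM, 35.0-fold, 15.97 to 96.02), and none of the other 6 libraries had a read of it. In testis, the smallest library, a level like that of eye could have gone unseen, because 3 reads there equal 55.0 CPM. The level of miR-338-3p was 35755 CPM in brain and 8045 CPM in eye (4.44-fold, 4.30 to 4.60), and slow muscle reached 16321 CPM. Thus both oligodendrocyte miRNAs were higher in brain, but their distribution over the other libraries was different.

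miRNAs of the Hox clusters gave the largest ratio in favor of brain. The miR-10 genes lie between Hox genes, which are expressed in hindbrain and spinal cord but not in forebrain. miR-10c-5p had 2723 reads in brain and 5 in eye (2929 against 10.9 CPM, 269-fold, 115 to 828), miR-10b-5p had 485 reads in brain and 14 in eye (17.1-fold, 10.1 to 31.5), and miR-10d-5p, with only 2 reads in eye, had 231 CPM in brain and 4.36 CPM in eye (ratio 53.1, 14.5 to 441). All 4 compared names of this list were higher in brain, against 44.9% of all 243 names. With names that were not compared, the list summed to 3820 CPM in brain and 48.0 CPM in eye. None of the 4 compared names was highest in brain among the 8 libraries. The highest level of miR-10c-5p was in liver (5422 CPM), that of miR-10b-5p in slow muscle (2423 CPM), and that of miR-10d-5p in ovary (326 CPM).

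Several abundant miRNAs outside the neuronal list were also higher in brain. miR-135a-5p had 25692 CPM in brain and 1212 CPM in eye (21.2-fold, 19.5 to 23.1), and its level in the other libraries was at most 858 CPM. miR-187-3p had 10215 CPM in brain and 619 CPM in eye (16.5-fold, 14.7 to 18.6). miR-139-5p had 4434 CPM in brain and 196.2 CPM in eye (22.6-fold, 18.3 to 28.2). All 4 names of miR-221 and miR-222, which are neighbors in vertebrate genomes, were higher in brain, against 44.9% of all 243 names. Of these, the miR-222a precursor reads had 2075 CPM in brain and 87.2 CPM in eye (23.8-fold, 17.4 to 33.4). All 5 names of miR-103 and miR-107, miRNAs located within pantothenate kinase genes in vertebrates, were higher in brain as well, with miR-103-3p at 18169 CPM in brain and 3716 CPM in eye (4.89-fold, 4.65 to 5.14).

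The list of miR-99, miR-100 and miR-125 had 9 of 11 names higher in brain, against 44.9% of all 243 names. miR-100-5p, the second most abundant name in brain, had 73799 CPM in brain and 29226 CPM in eye (2.53-fold, 2.48 to 2.57). miR-125a-5p had 27807 CPM in brain and 6347 CPM in eye (4.38-fold, 4.22 to 4.55). miR-125b-5p was at the threshold, with 49563 CPM in brain and 24749 CPM in eye (2.00-fold, 1.96 to 2.04), and it was no longer called under 3 of the 4 other scales that were tried. In contrast, 4 of 17 names of the let-7 list were called, all higher in brain, which is below the 44.9% of all 243 names. The median log2 ratio of the list, 0.72, was close to that of all names (0.78). The main member, let-7a-5p, had 17609 CPM in brain and 10310 CPM in eye (1.71-fold, 1.65 to 1.76).

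Both compared names of the digestive list were higher in brain, against 44.9% of all 243 names. The list also holds miR-122 and miR-215, of which no name was compared. miR-192-5p had 1543 CPM in brain and 146.03 CPM in eye (10.6-fold, 8.27 to 13.7), while intestine had 352792 CPM and liver 73751 CPM. miR-194-5p had 129.1 CPM in brain and 34.9 CPM in eye (3.70-fold, 2.19 to 6.68), and intestine had 21748 CPM. With names that were not compared, the digestive list summed to 1724 CPM in brain and 190 CPM in eye.

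Eye miRNAs were led by miR-204a-5p. It had 406 reads in brain and 45090 in eye (437 against 98278 CPM), which is 225-fold higher in eye (204.1 to 248.7), and it was the second most abundant name of the eye library. miR-184-3p had 27 reads in brain and 7102 in eye (29.04 against 15480 CPM, 533-fold higher in eye, 366 to 809). Of a list for pigment epithelium, ciliary body and lens, 7 of 8 compared names were higher in eye, against 21.8% of all 243 names. With names that were not compared, the list summed to 7352 CPM in brain and 122707 CPM in eye. The exception was miR-204b-5p, with 6876 CPM in brain and 4152 CPM in eye (1.66-fold, 1.57 to 1.74), and it held most of the brain sum. miR-211-5p had 2 reads in brain and 119 in eye (ratio of eye to brain 121, 32.7 to 1007).

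All 8 names of the cluster of miR-183, miR-96 and miR-182 were higher in eye, against 21.8% of all 243 names. They are arms and precursor reads of 3 neighboring miRNAs, so they are not separate observations. miR-182 precursor reads, which include the sequence printed above, had 697 CPM in brain and 9719 CPM in eye (13.9-fold higher in eye, 12.8 to 15.2). miR-183-5p had 429.2 CPM in brain and 5355 CPM in eye (12.5-fold higher in eye, 11.22 to 13.9), and miR-96-5p had 27.97 CPM in brain and 242 CPM in eye (8.65-fold higher in eye, 5.603 to 13.8). The list summed to 1555 CPM in brain and 18333 CPM in eye. In the 6 other libraries, miR-183-5p reached at most 19.3 CPM and the miR-182 precursor reads at most 33.1 CPM, so that brain, although far below eye, had the second highest level of both.

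miR-190b-5p was found in eye with 510 reads (1112 CPM) and in brain with 0 reads. Taking 3 reads as the smallest detectable number in the brain library (3.23 CPM), it was at least 344-fold higher in eye. Its highest level in another library was 13.2 CPM, in intestine. The related miR-190-5p was not called as a name, but it contained a sequence with 0 reads in brain and 162 in eye, which was matched to a lancelet entry. Reads that matched its leading sequence numbered 387 in brain and 87 in eye (2.20-fold higher in brain, 1.74 to 2.80).

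**Figure D3:**
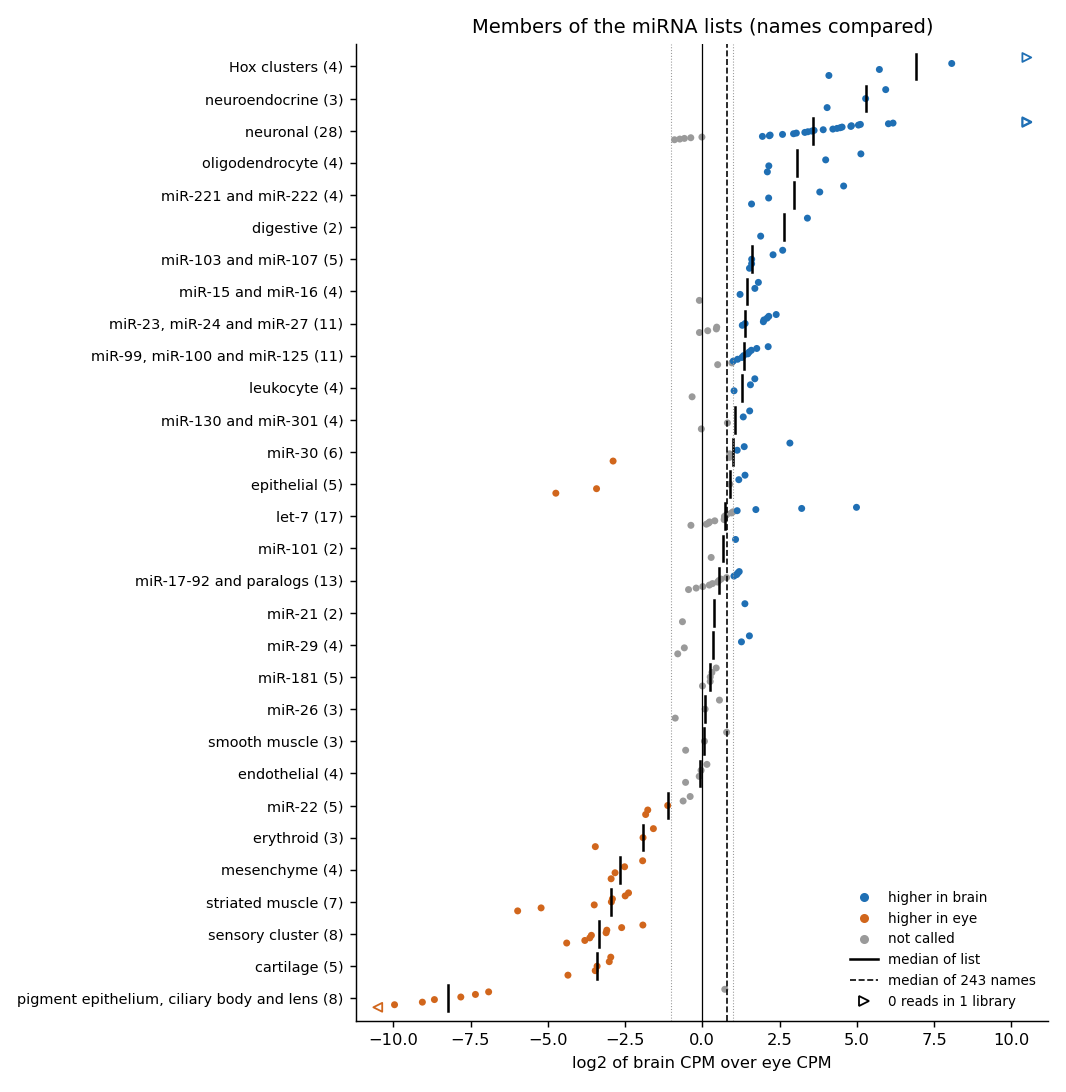
log2 ratio of brain CPM to eye CPM (horizontal axis) of each compared member of the 30 miRNA lists, with the number of compared names in parentheses and the lists ordered by median (black ticks). The dashed line is the median of all 243 names at 0.78, and open triangles at the edges are names with 0 reads in 1 library.

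miRNAs of striated muscle, cartilage, mesenchyme and erythroid cells were higher in eye, like the eye miRNAs. Of striated muscle miRNAs, 7 of 7 compared names were higher in eye, against 21.8% of all 243 names. None of the 7 was at 0 in either library. The sums given for this and the next lists cover all names of a list, also those not compared. The striated muscle list summed to 2692 CPM in brain and 18690 CPM in eye. For comparison, it summed to 170999 CPM in heart and 385240 CPM in slow muscle. Of the cartilage list 5 of 5 names were higher in eye (sums 2046 CPM in brain and 22520 CPM in eye), of the mesenchyme list 4 of 4 (5180 and 27084 CPM in brain and eye), and of the erythroid list 3 of 3 (21618 and 81312 CPM in brain and eye). The part of these cells in the other differences was not tested. With erythroid reads left out of the totals, a scale chosen after seeing the data, 105 names were higher in brain and 53 in eye.

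Within these lists, miR-206-3p and miR-499-5p had the largest ratios. miR-206-3p, a miRNA of skeletal muscle, had 31 reads in brain and 962 in eye (33.3 against 2097 CPM, 62.9-fold higher in eye, 44.0 to 93.1). miR-499-5p, encoded within a myosin heavy chain gene, had 29 reads in brain and 532 in eye (37.2-fold higher in eye, 25.6 to 56.1), while miR-1-3p had 2052 CPM in brain and 11574 CPM in eye (5.64-fold higher in eye, 5.35 to 5.95). Of the cartilage miRNAs, miR-455-5p, which lies within a collagen gene, had 325 CPM in brain and 6613 CPM in eye (20.4-fold higher in eye, 18.1 to 22.99). miR-140-5p had 387 CPM in brain and 3121 CPM in eye (8.06-fold higher in eye, 7.18 to 9.07). Among the 8 libraries, both of these had their highest level in eye.

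The erythroid miR-451-5p, which is made without Dicer, had 20964 CPM in brain and 79220 CPM in eye (3.78-fold higher in eye, 3.71 to 3.85) and was the third most abundant name in eye. Its neighbor miR-144 was also higher in eye as precursor reads (625 CPM in brain and 1872 CPM in eye, 2.996-fold higher in eye, 2.69 to 3.33). Leukocyte miRNAs did not follow them. Among 4 names, 3 were higher in brain and 0 in eye, against 44.9% and 21.8% of all 243 names. The 3 were miR-146a-5p and the 5p arm and precursor reads of miR-142a. Summed over all its names, the list had nearly equal levels (4985 CPM in brain and 5050 CPM in eye). The most abundant, miR-223-3p, had 3473 CPM in brain and 4368 CPM in eye (ratio 0.795, 0.752 to 0.841).

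Endothelial and smooth muscle miRNAs differed by less than 2-fold between the libraries. Over all 243 names, 66.7% were called in either direction. None of the 4 endothelial names was called, and miR-126a-3p had 17863 CPM in brain and 19143 CPM in eye (ratio 0.933, 0.909 to 0.958). None of the 3 smooth muscle names was called either, although miR-145-5p at 25855 CPM in brain and 37574 CPM in eye had an interval of the ratio below 1 (0.688, 0.675 to 0.702). The 5 names of miR-181, which is expressed in brain and retina, ranged in log2 ratio between 0.01 and 0.45, and none was called.

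Epithelial miRNAs were divided, with 2 of 5 compared names higher in brain and 2 in eye, against 44.9% and 21.8% of all 243 names. miR-203-3p, a miRNA of skin, and miR-205-5p, a miRNA of corneal and other stratified epithelia, were higher in eye, with 33.3 and 11.8 CPM in brain against 357 and 316 CPM in eye. The ratios were 10.7 (7.27 to 16.3) and 26.7 (14.5 to 54.7) in favor of eye. In contrast, miR-200b-3p and miR-429-3p, which belong to a family also expressed in olfactory neurons, were higher in brain, with 450 and 141.99 CPM in brain against 198 and 54.5 CPM in eye (2.27-fold, 1.80 to 2.88, and 2.61-fold, 1.69 to 4.17). The most abundant name of the list, miR-200a-3p of the same family, was not called (884 CPM in brain and 477 CPM in eye). Its log2 ratio of 0.89 was near the median of all 243 names (0.78).

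Members that share a miRNA number often had different ratios. There were 33 numbers with at least 2 members of the same arm at 100 CPM or more. In 17 of them, the members' log2 ratios spanned more than 1. In 0 of the 33 was 1 member called higher in brain and another higher in eye. How often names with different numbers differ in this way was not computed for comparison. The 0 also depends on names that hold more than 1 sequence. The name miR-190-5p was not called, and miR-190b-5p was called higher in eye. Reads that matched the leading sequence of miR-190-5p, however, had a higher level in brain (387 reads in brain and 87 in eye). Apart from miR-190, in which miR-190b-5p had 0 reads in brain, the widest span belonged to miR-204, in which miR-204a-5p had a log2 ratio of -7.81 and miR-204b-5p of 0.73. The leading sequences of these names differ by 1 base outside the seed (C11T, counted from the 5′ end of miR-204a-5p).
miR-204a-5p: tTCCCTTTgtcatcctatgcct
miR-204b-5p: tTCCCTTTgttatcctatgcct
Read together by seed, all sequences with TCCCTTT at bases 2 to 8 held 6749 reads in brain and 44939 in eye. By name, miR-204a-5p had 406 reads in brain and 45090 in eye, whereas miR-204b-5p had 6392 reads in brain and 1905 in eye, so each tissue had its own leading member.

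**Figure D4:**
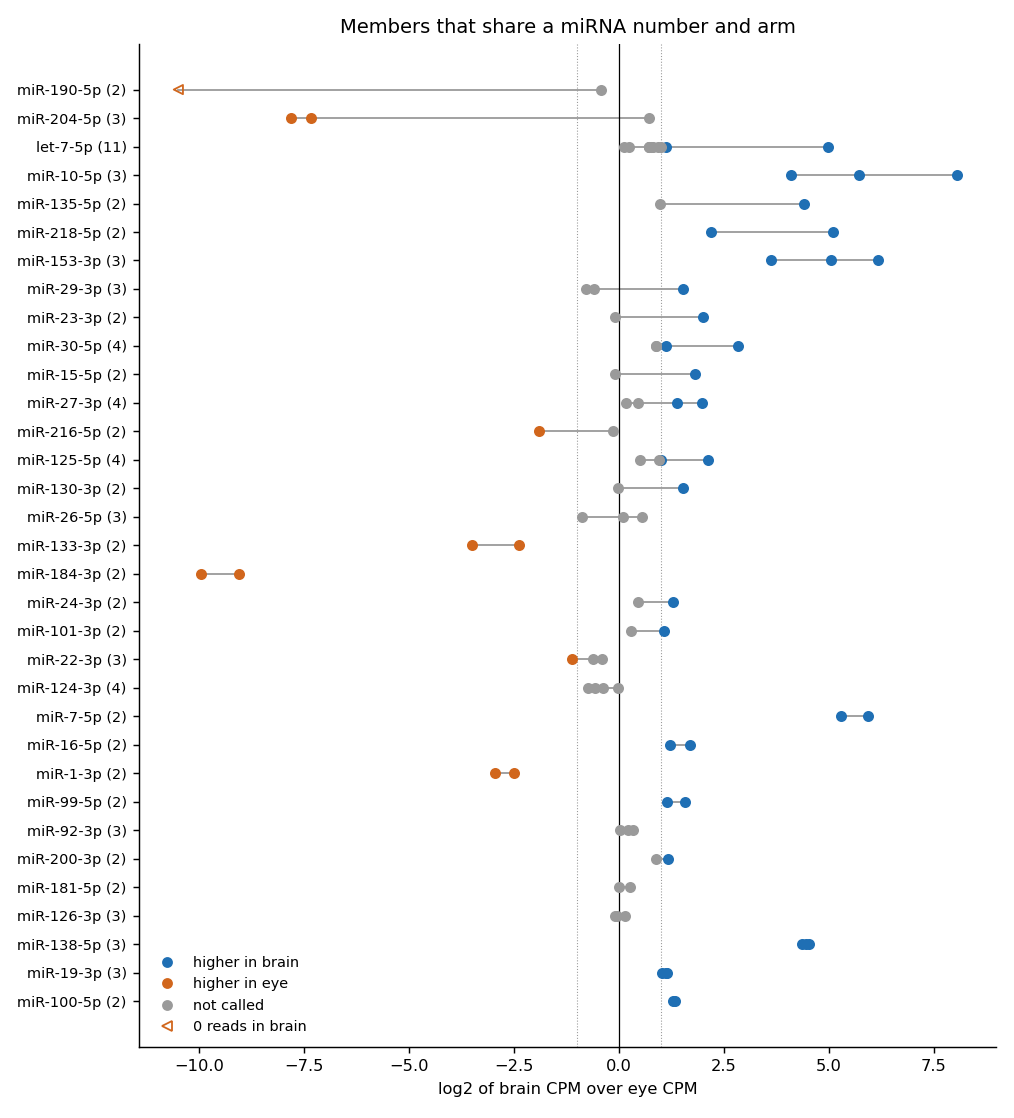
log2 ratio of brain CPM to eye CPM (horizontal axis) of members that share a miRNA number and arm, with the number of members in parentheses and the widest spans at the top. miR-204-5p runs between -7.81 and 0.73, whereas miR-138-5p and miR-19-3p members lie close together.

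Another 3 pairs showed the same kind of difference in brain. miR-135a-5p was 21.2-fold higher in brain, whereas miR-135b-5p had 17688 CPM in brain and 8991 CPM in eye (1.97-fold, 1.90 to 2.04) and was not called. Their leading sequences differ by C10T and G20C, counted from the 5′ end of miR-135a-5p. For miR-218, a miRNA of motor neurons, miR-218b-5p had 5891 CPM in brain and 170 CPM in eye (34.7-fold, 27.7 to 43.9), and miR-218a-5p had 4580 CPM in brain and 1000.4 CPM in eye (4.58-fold, 4.16 to 5.05). Their difference, T21C counted from the 5′ end of miR-218a-5p, is near the 3′ end, and reads that end before it cannot be assigned to either. miR-23b-3p had 12778 CPM in brain and 3208 CPM in eye (3.98-fold, 3.77 to 4.21), and miR-23a-3p had 4294 CPM in brain and 4579 CPM in eye (0.938, 0.889 to 0.989), with T19A between them (counted from the 5′ end of miR-23a-3p).
miR-135b-5p: tATGGCTTtttattcctatctga
miR-218a-5p: tTGTGCTTgatctaaccatgt
miR-23a-3p: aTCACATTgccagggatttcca
miR-23b-3p: aTCACATTgccagggattacc

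Some names held more than 1 sequence, and these differed in their ratios. miR-135b-5p was the clearest case. Its sequences fell into a pair of types that differ by T19C and C20G, counted from the 5′ end.
miR-135b-5p, leading type: tATGGCTTtttattcctatctga
miR-135b-5p, differing type: tATGGCTTtttattcctacgtga
Reads that matched the leading type over their whole length numbered 8416 in brain and 4040 in eye (ratio 1.03, 0.990 to 1.07). All other reads of the name, which include the differing type, numbered 8028 in brain and 85 in eye (46.6-fold, 37.6 to 58.4). Thus the ratio of 1.97 for this name averaged a type with a net ratio near 1 and other reads that were higher in brain, like miR-135a-5p. The read lengths of the leading type differed in opposite directions between the libraries, as given below. The differing type was matched to entries of lamprey and medaka.

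The miR-29 members also divided within 1 name. miR-29b-3p had 14869 CPM in brain and 5172 CPM in eye (2.87-fold, 2.75 to 3.004), and miR-29a-3p had 13253 CPM in brain and 19834 CPM in eye (0.668, 0.650 to 0.687). The name miR-29a-3p held a pair of 22 nt sequences that differ by A18G, counted from the 5′ end.
miR-29a-3p, first sequence: tAGCACCAtttgaaatcagtta
miR-29a-3p, second sequence: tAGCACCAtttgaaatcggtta
The first had 6492 reads in brain and 3990 in eye (ratio 0.803), and the second had 3934 reads in brain and 4303 in eye (0.451). The names are those of the matched miRBase entry, often of another species, so a letter does not by itself show which gene of *T. rubripes* gave the read.

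Neighboring miRNA genes mostly had log2 ratios within 1 of each other. In the RefSeq annotation of *T. rubripes* (assembly fTakRub1.2), 23 groups of miRNA genes lie within 10 kb of each other and hold at least 2 of the compared miRNAs, and 154 of the 243 names matched an annotated miRNA. The members' log2 ratios spanned less than 1 in 15 of the 23 groups, with a median span of 0.61. For miR-182, miR-183 and miR-96 they lay between -3.71 and -2.80, for miR-1 and miR-133 between -2.67 and -2.49, and for miR-132 and miR-212 between 3.54 and 4.08. The widest span, 2.10, belonged to miR-29a and miR-29b (-0.58 and 1.52). Several names have copies in more than 1 group, and their reads cannot be divided between the copies. Such groups, like those of miR-29a and miR-29b, repeat the same values and are not separate observations. Spans of miRNAs that are not neighbors were not computed for comparison.

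The 5′ start of the miRNAs was largely the same in brain and eye. Of 86 arms with at least 200 reads in each library, 85 had the same most common start in both, and 74 had over 90% of their reads at it in both. In 5 arms (5.81%) the share at the most common start differed by at least 10 percentage points (two-sided Fisher's exact test on reads, Benjamini-Hochberg adjusted p under 0.05 over 86 arms). These were miR-124a-3p with 85.2% in brain (95% Wilson interval 81.1 to 88.5) and 64.3% in eye (58.0 to 70.3), miR-214-3p with 73.3% (67.0 to 78.7) and 59.1% (55.6 to 62.5), miR-101a-3p with 57.2% (54.7 to 59.7) and 71.1% (66.2 to 75.6), miR-101b-3p with 56.9% (53.4 to 60.3) and 46.3% (40.9 to 51.7), and let-7e-5p with 76.7% (75.1 to 78.1) and 86.9% (84.2 to 89.2). Only in miR-101b-3p did the most common start itself differ. None of the 5 was among the 37 arms with at least 1000 reads in each library, where the largest difference was 8.32 points.

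When precursor reads that overlap an arm were added to it, the other arm of miR-9 joined this group, with 51.8% of reads at the most common start in brain and 35.4% in eye. Its leading forms begin 1 base apart, which shifts the seed.
miR-9 precursor, first form: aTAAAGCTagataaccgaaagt
miR-9 precursor, second form: tAAAGCTAgataaccgaaagtaa
The first form had 3926 reads in brain and 302 in eye (6.42-fold), and the second had 1519 reads in brain and 461 in eye (1.63-fold). Accordingly, the first led in brain and the second in eye.

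The 3′ end varied more between brain and eye. In 16 of 86 arms (18.6%) the share of reads at the most common length, among reads with the most common start, differed by at least 10 points with an adjusted p under 0.05 (Fisher's exact test). The mean length was longer in eye in 13 of these 16 arms and longer in brain in 3, and over all 86 arms it was longer in eye in 67 and in brain in 19, with a median difference of -0.06 nt (brain minus eye). The most common length was the same in both libraries in 78 of 86 arms.

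The largest shift was in miR-135b-5p, whose name holds a pair of sequence types. Its 23 nt form made up 31.6% (30.9 to 32.3) of 16322 reads in brain and 79.6% (78.4 to 80.8) of 4097 reads in eye. Within the leading type alone, the 23 nt form made up 26.6% (25.7 to 27.5) in brain and 80.0% (78.7 to 81.2) in eye. By sequence, the 23 nt form of this type had 2223 reads in brain and 3218 in eye (ratio 0.341), whereas the leading 21 nt form had 2938 reads in brain and 253 in eye (5.73-fold). The related miR-135a-5p did not show this, with 50.7% of 23767 reads in brain and 53.2% of 551 reads in eye at its most common length. miR-9-5p shifted in the other direction. Its 23 nt form made up 57.4% (56.8 to 58.1) in brain and 29.6% (27.7 to 31.7) in eye, where 21 nt was the most common length.

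**Figure D5:**
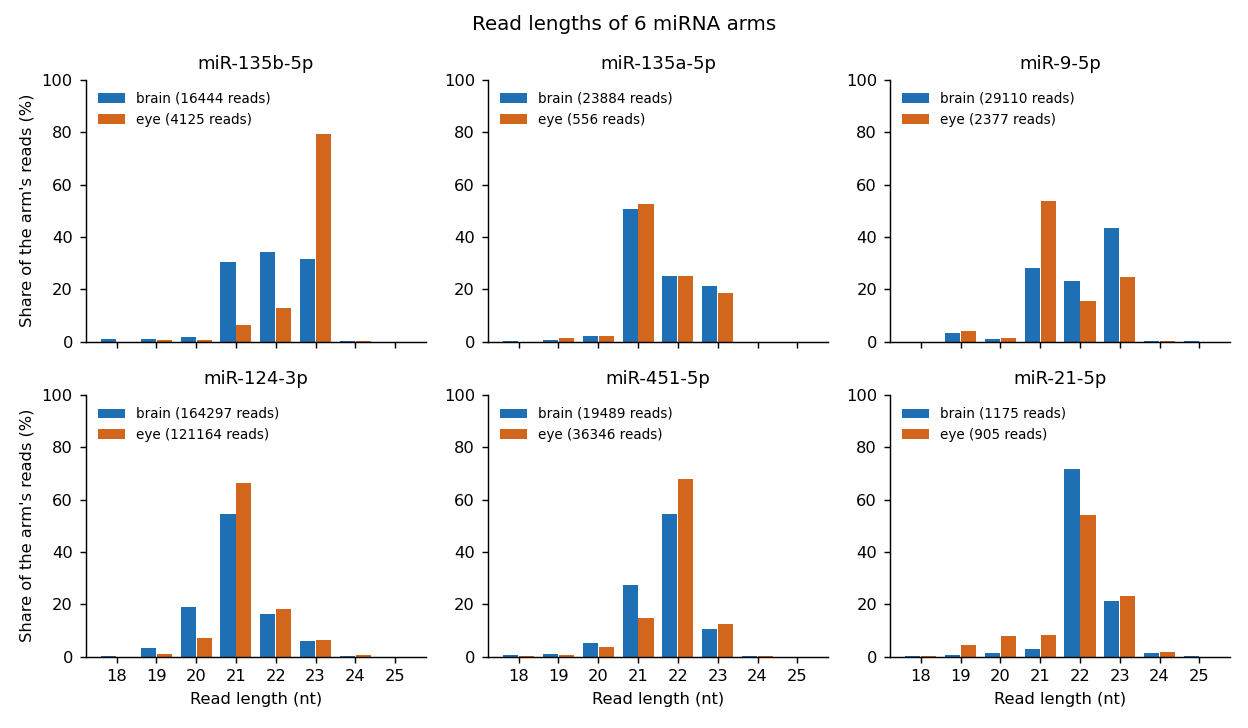
Share of each arm's reads (vertical axis, %) by read length (horizontal axis, nt) for 6 miRNA arms, with brain bars left of eye bars and the number of reads in each legend. The name miR-135b-5p holds a pair of sequence types, and the 23 nt bar of miR-135b-5p is the highest in eye but not in brain, and that of miR-9-5p is the highest in brain but not in eye.

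With reads that matched each arm's leading sequence only, a choice made after seeing the data, 12 of the 16 arms were called, and no other arm was. The 4 that were lost were miR-92a-3p, miR-124a-3p, miR-124c-3p and let-7-5p. Of those kept, the next largest shifts were those of miR-140-5p (20 nt in 45.3% of reads in brain and 70.2% in eye), miR-18-5p (23 nt in 33.6% in brain and 53.4% in eye) and miR-21-5p (22 nt in 73.1% in brain and 54.3% in eye). Highly abundant miRNAs were also included. The 21 nt form of miR-124-3p made up 55.6% (55.4 to 55.9) in brain and 68.8% (68.6 to 69.1) in eye, and the 22 nt form of miR-451-5p made up 54.5% (53.8 to 55.2) in brain and 67.9% (67.4 to 68.4) in eye. In both, the shorter reads were more frequent in brain. The 20 nt form of miR-124-3p had 29619 reads in brain and 8225 in eye (1.78-fold), while the 21 nt form printed above had 85599 and 78429 (0.539).

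By recorded arm alone, the dominant arm was the same in brain and eye for all 25 miRNAs with reads of both recorded arms and at least 50 reads in each library. The ratio of the arms differed by at least 2-fold in 3 of them (12%, Fisher's exact test, adjusted p under 0.05). In miR-30e the 5p arm held 97.6% of reads in brain and 74.9% in eye. miR-30e-5p itself was not called (2613 CPM in brain and 1425 CPM in eye, 1.83-fold, 1.68 to 2.00), but miR-30e-3p had 64.5 CPM in brain and 477 CPM in eye (7.396-fold higher in eye, 5.54 to 10.01). The name miR-30e-3p holds more than 1 sequence. Reads that matched its leading sequence numbered 48 in brain and 100 in eye (4.22-fold higher in eye, 2.96 to 6.09). All its other reads numbered 12 in brain and 119 in eye (20.1-fold higher in eye, 11.1 to 39.98). With leading sequences only, the 5p arm held 98.1% in brain and 86.7% in eye, and the same 3 miRNAs were called. The other 2 were miR-182, with 7.74% of reads from the 5p arm in brain and 17.1% in eye, which was not called once precursor reads were added, and miR-4286, a name with mostly short reads ending in CCA. With precursor reads added to the arm they overlap, 29 miRNAs could be tested, 6 were called, and the dominant arm differed in 2. One of these was miR-455, whose 3p reads are almost all listed as precursor, with 303 reads of the 5p and 547 of the 3p arm in brain and 3037 and 2106 in eye. Its 5p arm then held 35.6% of reads in brain and 59.1% in eye. The other, miR-460, was not called (60.6% in brain and 46.6% in eye).

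A few names higher in eye matched hairpins recorded in mammals. The miR-6243 precursor reads had 10 reads in brain and 1857 in eye (10.8 against 4048 CPM, 376-fold higher in eye), the miR-716b precursor reads had 2 and 347, and the miR-5109 precursor reads had 0 and 247, in brain and in eye. None of these 3 was matched to an entry of *T. rubripes*, and in the 6 other libraries miR-6243 precursor reached at most 91.7 CPM.

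Among names with at least 1000 CPM in both libraries, those whose levels differed least were miR-181a-5p (3785 CPM in brain and 3771 CPM in eye), miR-124c-3p, miR-130-3p (3579 CPM in brain and 3657 CPM in eye), miR-152-3p (1594 CPM in brain and 1689 CPM in eye) and miR-26-5p (18220 CPM in brain and 17108 CPM in eye). Their ratios of brain to eye lay between 0.944 and 1.07. The direction of miR-181a-5p, miR-124c-3p, miR-130-3p and miR-26-5p depended on how the libraries were scaled.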

How the data were processed

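The authors sequenced 1 small RNA library per tissue (SOLiD 3), removed low-quality reads and trimmed 3′ adapters. They searched reads of miRNA length against miRBase in CLC Genomics Workbench, allowing changed ends. Further reads were then assigned by looser matching. The annotated reads used here were 929645 of 2664163 reads of 18 to 25 nt in brain and 458800 of 1387475 in eye. All of these annotated reads are listed with 0 mismatches, so a sequence that differs from the *T. rubripes* entry was matched to another entry, often of another species. The deposited files list each distinct sequence with its read count, miRBase name and type of match. The members and lists were chosen with earlier results of these data known. Counts were summed by name and arm and scaled to CPM of each file's total. Depths of 929645 and 458800 reads in brain and eye put 3 reads at 3.23 and 6.54 CPM; reads are not independent molecules, so intervals cover counting error only. Names with at least 50 reads in either library were tested by an exact binomial test with Benjamini-Hochberg adjustment, and called at an adjusted p under 0.05 and 2-fold. Arms with at least 200 reads per library were tested for start and length, and arm ratios by Fisher's exact test, with Wilson intervals (95%). A start or length was read from sequences that overlap the arm's leading sequence by at least 14 bases with at most 2 mismatches. Precursor reads were left out of the tests of starts, lengths and arm ratios unless stated.

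Named by rule were the 15 called names with the largest ratios in each direction at 1000 CPM or more, the 10 most abundant names of each library, up to 4 members of each list at 100 CPM or more, up to 5 arms with the largest shift of each kind and up to 5 names nearest to equal levels. Other names, and the sequence types within miR-135b-5p and miR-29a-3p, were chosen after their values were seen. Python 3.11.15, numpy 2.4.6, scipy 1.17.1, pandas 2.3.3 and edgeR 4.0.16 (only for TMM scaling, in R 4.3.3) were used, and the tests across names and arms were tested on simulated data. Alternatives changed the library scale, the read minimum, the fold, the matches kept, the naming and the treatment of precursor reads. The fast muscle library was not analysed here.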

Additional observations from a re-analysis of the deposited data

How the results depend on the processing

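No paired analysis was possible because each tissue has 1 library, and no library could be left out for the same reason. Counts of calls moved by over 1.5 times in these settings: 88 names higher in eye with a minimum of 1 read, 31 in eye with a minimum of 200 reads, 61 in brain with a fold of 4, and 51 in brain with 22 in eye when only sequences identical to the recorded mature form were kept. Shifted 3′ ends numbered 26 with a minimum of 50 reads, 7 with a minimum of 1000 reads and 32 with a difference of 5 points. Shifted 5′ starts numbered 0 with a minimum of 1000 reads, where 19 of 37 arms had an unadjusted p under 0.05 by Fisher's exact test. Shifted arm ratios numbered 1 at a ratio of 4 and 6 with precursor reads added.

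Another scale of the libraries shifted every log2 ratio, by 0.08 with totals of 18 to 25 nt reads, by -0.12 with TMM, by -0.22 without miR-124 reads and by -0.09 without erythroid reads. Signs near 0 then reversed. With 18 to 25 nt totals, miR-124c-3p was at 0.065, miR-126b-3p at 0.038 and miR-130-3p at 0.046. With TMM, miR-181a-5p was at -0.11 and miR-26-5p at -0.029. Without miR-124 reads, let-7j-5p was at -0.094, miR-126-3p at -0.075, miR-181a-5p at -0.22 and miR-26-5p at -0.13. Without erythroid reads, miR-181a-5p was at -0.085. Of 123 named miRNAs, 4 lost their call with TMM, 9 without miR-124 reads and 4 without erythroid reads. A call was gained by 2 without miR-124 reads and by 1 with 18 to 25 nt totals. The scale without erythroid reads, sums by seed, added precursor reads for the name counts and leading sequences only (3 shifted arm ratios) were chosen after seeing the data. Names with at most 3 reads in the lower library (19 calls) are the least certain in size.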

Other observations

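Within names, reads that did not match the leading sequence had other ratios in several cases besides miR-135b-5p and miR-29a-3p. These differing reads are all other reads of the name, including any that differ by more than 2 bases. For miR-124c-3p, reads that matched the leading sequence numbered 4527 in brain and 1673 in eye (ratio 1.34, 1.26 to 1.41), and the differing reads numbered 4023 in brain and 2584 in eye (0.768, 0.731 to 0.808). For let-7d-5p, matching reads numbered 1757 in brain and 293 in eye (2.96, 2.61 to 3.36), and differing reads 705 in brain and 263 in eye (1.32, 1.15 to 1.53). Of all let-7d-5p reads, only 1841 in brain and 309 in eye could be placed on its leading sequence with at most 2 mismatches. For miR-9-5p, matching reads numbered 28755 in brain and 2295 in eye (6.18, 5.93 to 6.45), and differing reads 355 in brain and 82 in eye (2.14, 1.68 to 2.75). All of these reads are listed with 0 mismatches to a miRBase entry, often of another species. These values were looked up after the lengths of miR-135b-5p had been seen.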
